A study of Mus musculus with 11 samples.

Results

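The keratin genes of the mouse were followed across skin and small intestine after topical imiquimod (IMQ). All rows whose gene symbol was Krt followed by a number and at most 1 letter were taken, which left out the keratin-associated proteins and gave 54 of the 45777 genes in the table. They were described in 7 groups, in the main by where the protein is known to be made: 3 basal epidermal, 7 suprabasal epidermal, 4 stress-associated, 10 hair root sheath, 16 hair shaft, 5 simple-epithelial and 9 other keratins of mucosa, cornea or nail or of no settled site. Krt84 was counted with the shaft keratins by its class, as a type II hair keratin. By sequence class, 28 were type I and 26 were type II.

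Keratins are the intermediate filament proteins of epithelial cells, and a filament is built from pairs of an acidic type I and a basic type II protein. Which pair a cell makes follows its place and state: Krt5 with Krt14 in basal keratinocytes, Krt1 with Krt10 in the layers above, Krt6a and Krt6b with Krt16 and Krt17 in wounded or inflamed epidermis, separate sets in the inner root sheath and the hair shaft of growing follicles, and Krt8 with Krt18, Krt19 and Krt20 in the single-layered epithelium of the gut. IMQ is an agonist of Toll-like receptor 7, and its cream is a widely used way to give mice a psoriasis-like dermatitis.

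All animals were female or male BALB/c mice aged 8 to 10 weeks whose back had been shaved. Each day for 5 to 8 days, 62.5 mg of cream with 5% IMQ, or of Vaseline as the vehicle, was spread on the back and the right ear, and the skin site that was sampled was not given. RNA-seq libraries came from vehicle-treated skin (control, replicates 1 to 3), IMQ-treated skin (replicates 4 to 6), the small intestine of vehicle-treated mice (replicates 7 to 9) and that of IMQ-treated mice (replicates 10 and 11). Which libraries came from the same mouse was not given, nor whether each came from a separate mouse, so the p-values measure the spread between these libraries.

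Gene counts summed to between 44995414 and 58526384 per library. Control skin replicate 2 stood apart from the other control skins. Its summed FPKM over 18 hair matrix and shaft marker genes was 87.6, against at least 279.6 in control replicates 1 and 3 and 66.0 to 77.1 in the IMQ-treated skins. For 9 melanocyte markers the sums were 41.3, at least 148.6 and 20.7 to 33.2, and for 12 proliferation markers 80.8, at least 284.4 and 162.3 to 179.6. It also held transcripts of gut epithelium: the median of 15 small-intestinal markers was 1.43% of the control intestine's level in replicate 2 (range 0.485% to 5.96%) and at most 0.0372% in any other skin library. Of the 15, 10 stayed at or below 0.0600% in the other 5 skin libraries and were at 0.485% to 2.09% in replicate 2. The other 5 (Rbp2, Anpep, Slc5a1, Slc15a1 and Mttp) had counts in all skin libraries, and for Rbp2 and Slc5a1 some IMQ libraries, at up to 5.58% and 5.20%, lay above replicate 2, at 2.38% and 2.92%. Results that rest on this library are therefore given with and without it. In the other direction, the small-intestinal control replicate 9 had counts for 13 of 15 epidermal and stress keratins and Krt79, 355 in all, against 4 to 6 of them in the other intestinal libraries.

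The 100 bases before the transcription start are shown for 6 of the keratins whose level changed in skin (5 that fell and Krt84, which rose), as the upstream letters of genes that lie in 2 dense clusters. A RefSeq window was at hand for 7 of the 11 genes called, and that of Krt14 is not shown because it lies 1518 bases from the start of the coding transcript in GENCODE, whereas the other 6 lie within 43 bases of such a start. They are from RefSeq on GRCm38.p6, the build of the files (mm10), and are written 5′ to 3′ on the gene's strand, which was the minus strand for all 6. Capitals mark the letters TATANA where they began 45 to 20 bases before the start on the sense strand. The windows are chr15:101869706-101869805 for Krt77, chr15:101818170-101818269 for Krt2, chr11:100088270-100088369 for Krt32, chr11:99374904-99375003 for Krt28, chr15:101573905-101574004 for Krt75 and chr15:101532821-101532920 for Krt84.
Krt77: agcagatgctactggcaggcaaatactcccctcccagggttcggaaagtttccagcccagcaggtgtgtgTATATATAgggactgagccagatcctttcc
Krt2: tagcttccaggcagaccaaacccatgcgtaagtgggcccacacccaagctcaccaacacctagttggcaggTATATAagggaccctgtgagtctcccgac
Krt32: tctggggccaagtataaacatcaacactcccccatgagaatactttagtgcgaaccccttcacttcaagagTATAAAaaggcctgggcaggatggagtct
Krt28: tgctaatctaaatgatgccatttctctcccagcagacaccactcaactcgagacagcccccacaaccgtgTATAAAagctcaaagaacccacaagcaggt
Krt75: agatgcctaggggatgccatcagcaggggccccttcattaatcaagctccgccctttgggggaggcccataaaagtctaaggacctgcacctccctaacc
Krt84: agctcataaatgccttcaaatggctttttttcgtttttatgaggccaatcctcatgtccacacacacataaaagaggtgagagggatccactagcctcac
RefSeq windows were at hand for 36 of the 54 keratins. None was at hand for the stress keratins Krt6a, Krt6b, Krt16 and Krt17, nor for Krt15 and Krt1, so the counts below do not cover them. TATANA was found at that distance in 17 of the 36 (47.2%), against 1002 of 27025 mouse promoters (3.71%). The letters TGANTCA, which match the AP-1 site, were found on either strand within 250 bases in 1 of the 36 (2.78%), against 6.87% of all promoters. Such matches are descriptions of the letters, not of bound sites.

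In skin, the question was which keratins differ between IMQ-treated and vehicle-treated mice. Of the 54 keratins, 34 had a count in every skin library and were tested; 11 of them changed, 5 higher and 6 lower (adjusted p under 0.05 by the quasi-likelihood test of edgeR, with p-values adjusted by the Benjamini-Hochberg method over 20512 genes, as everywhere here unless another tool is named). Of all genes tested, 6.74% were called, 4.05% higher and 2.69% lower. Krt14, Krt16, Krt6a, Krt6b and Krt84 rose, and Krt15, Krt2, Krt77, Krt28, Krt75 and Krt32 fell. DESeq2 called 21 of the 34, where it called 14.8% of all genes. The median log2 fold change of the 34 was -1.11, against -0.01 over all genes. Without control replicate 2 this median was -0.62, against 0.01 over all genes. Normalized counts of the groups did not overlap for 7 of the 34 on the higher side, where 15.1% of all genes tested did so, and for 9 on the lower side, where 13.3% did so. The other 20 keratins had a count of 0 in at least 1 skin library, and 12 of these were hair shaft and 4 were root sheath keratins.

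The stress keratins showed the largest rises. Krt6a, Krt6b and Krt16 rose, and Krt17, which is made with them in wounded epidermis and also in the hair follicle's outer sheath, did not pass the test. For Krt16 the normalized counts, scaled by relative log expression within the tissue, were 8942, 5090.3 and 3937 in control replicates 1, 2 and 3 and 183428, 186690.0 and 74094 in IMQ replicates 4, 5 and 6. Every IMQ library lay above every control library, a 24.7-fold higher level (log2 fold change 4.63, SE 0.51, adjusted p = 0.00579). Krt6b had 6599.6, 2779.6 and 3030.0 in control replicates 1, 2 and 3 and 202963, 204973 and 62033 in IMQ replicates 4, 5 and 6. It was 37.9-fold higher (log2 fold change 5.24, SE 0.63, adjusted p = 0.00770), the largest rise among the keratins tested, and again the groups did not overlap. Krt6a, its neighbour and near copy, had 10226, 7982 and 7308 in control replicates 1, 2 and 3 and 170022, 173506 and 63109 in IMQ replicates 4, 5 and 6. The rise was 15.9-fold (log2 fold change 3.99, SE 0.44, adjusted p = 0.00558). IMQ replicate 6 was the lowest of the 3 treated skins for all 3 genes. These calls were kept whichever single skin library was left out, with a highest adjusted p of 0.0265 for Krt16, 0.0337 for Krt6b and 0.0324 for Krt6a. In a bulk tissue, more cells of a type and more RNA per cell cannot be told apart.

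Krt6a and Krt6b share reads: 31.8% of the 100-base windows of the Krt6a transcript and 30.1% of those of Krt6b occur in another keratin transcript, 643 of them shared between these 2 genes. How the deposited counts divided such reads is not known, so the split between the 2 genes is uncertain. The hair keratins Krt81 and Krt86 are under the same limit, with 29.0% and 24.6% of windows shared, whereas 37 of the 53 keratins with a transcript share none. The summed normalized count of Krt6a and Krt6b was 16826, 10762 and 10338 in control replicates 1, 2 and 3 and 372985, 378479 and 125142 in IMQ replicates 4, 5 and 6. Krt17 differed from its stress partners. Its normalized counts were 49092, 38691 and 53165 in control replicates 1, 2 and 3 and 48488, 84772 and 60791 in IMQ replicates 4, 5 and 6, so that the groups overlapped (log2 fold change 0.46, SE 0.25, adjusted p = 0.327). In control skin it was the most abundant of the 4 per length, at 570.4 ± 113 FPKM (SD, n = 3), against 71.9 ± 32.6 for Krt16, 70.8 ± 13.8 for Krt6a and 34.9 ± 18.7 for Krt6b. After IMQ it stood at 756.6 ± 224 FPKM, below the mean of Krt16 at 1699 ± 709.

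Among the basal keratins, Krt14 and Krt15, both type I, moved in opposite directions. Krt15, a basal keratin also known as a marker of the hair follicle bulge, had 25868, 44237 and 28298 in control replicates 1, 2 and 3 and 6585, 6632 and 7389 in IMQ replicates 4, 5 and 6. All 3 IMQ libraries lay below every control, 4.78-fold lower on average (log2 fold change -2.26, SE 0.23, adjusted p = 0.00448), and the call was kept in each of 6 fits without 1 library. Krt14, the main type I keratin of the basal layer, had 133186, 141850.0 and 89360.5 in control replicates 1, 2 and 3 and 360935, 375291 and 232579 in IMQ replicates 4, 5 and 6. The treated libraries were all above the controls, with a 2.66-fold higher level (log2 fold change 1.41, SE 0.31, adjusted p = 0.0447), but the adjusted p was between 0.0513 and 0.177 when any single library was left out, so this call rests on all 6 libraries. Krt5, the type II partner of Krt14, had 163568, 169383 and 131879 in control replicates 1, 2 and 3 and 226001, 247806 and 219751 in IMQ replicates 4, 5 and 6. Its groups did not overlap either, but it did not pass the test of edgeR (log2 fold change 0.58, SE 0.22, adjusted p = 0.178). DESeq2 called Krt5 higher, where it called 7.38% of all genes higher.

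Of the 7 suprabasal keratins 2 fell, with the largest called falls of any keratin, and the abundant pair Krt1 and Krt10 did not pass the test. Krt77, a type II relative of Krt1 found in suprabasal keratinocytes, had 140456, 232002 and 47585 in control replicates 1, 2 and 3 and 462, 569 and 519.6 in IMQ replicates 4, 5 and 6. The lowest control was far above the highest treated library, and the level was 271-fold lower (log2 fold change -8.08, SE 0.69, adjusted p = 0.00291). Krt2, which is made late, in the upper spinous and granular layers, had 1152, 3625 and 621 in control replicates 1, 2 and 3 and 10.9, 6.17 and 10.6 in IMQ replicates 4, 5 and 6. It was 193-fold lower (log2 fold change -7.59, SE 0.86, adjusted p = 0.00641), from a level that was lower than that of Krt77 per length, at 12.6 ± 10.7 against 899.8 ± 561 FPKM in control skin (SD, n = 3). Both falls were called in all 6 fits without 1 library. Control replicate 2 was the highest library for both genes, and without it the log2 fold changes were -7.50 for Krt77 and -6.57 for Krt2.

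Krt1, the type II keratin of the spinous layer, had 316705, 298087 and 124349 in control replicates 1, 2 and 3 and 571286, 459942 and 241461 in IMQ replicates 4, 5 and 6. Krt10, its type I partner, had 427375, 477413 and 159110.0 in control replicates 1, 2 and 3 and 397196, 306270.0 and 164389 in IMQ replicates 4, 5 and 6. Groups overlapped for both, and neither passed the test (log2 fold change 0.78, SE 0.48, adjusted p = 0.381 for Krt1, and -0.29, SE 0.51, adjusted p = 0.782 for Krt10). Their ratio was nevertheless separate in the 2 groups: FPKM of Krt10 over Krt1 was 1.49 to 1.87 in control skin and 0.777 to 0.811 in IMQ-treated skin. Krt14 over Krt5 moved the other way, from 0.901 to 1.11 in controls to 1.41 to 2.12 after IMQ. Krt15 over Krt14 was 0.187 to 0.305 in controls and 0.0170 to 0.0306 after IMQ. These ratios were chosen with the data known and are given as descriptions without a test. The remaining suprabasal keratins Krt9, Krt78 and Krt80 were not called, with log2 fold changes of -1.06, -0.43 and -0.50.

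**Figure D1:**
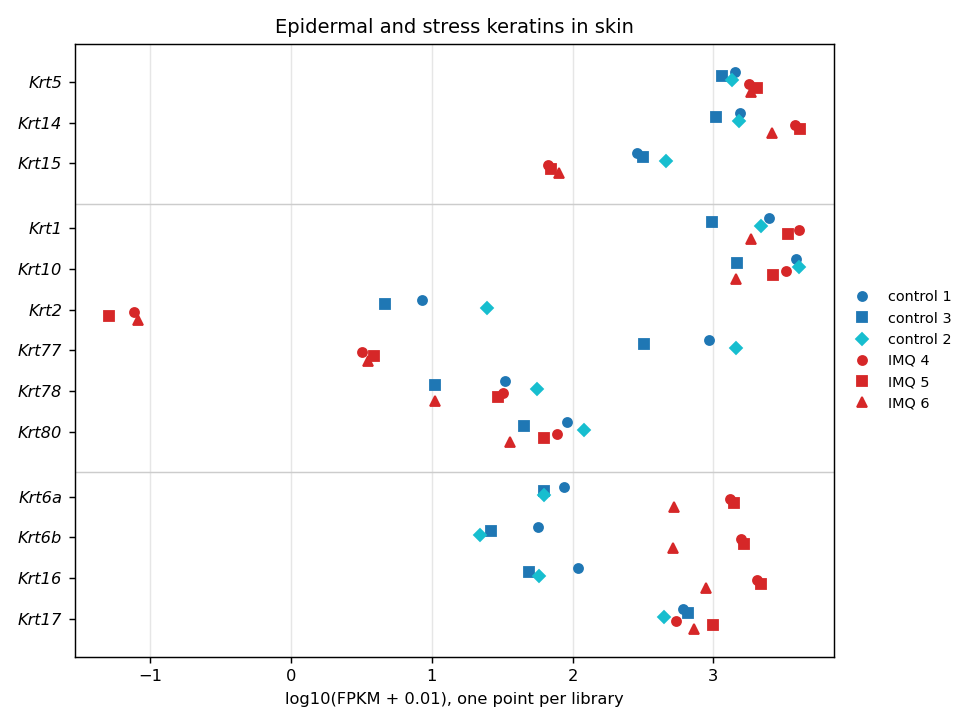
Levels of basal (top), suprabasal (middle) and stress keratins (bottom) in each skin library, as log10(FPKM + 0.01) on the horizontal axis, with 1 point per library; blue and cyan points are control skin and red points IMQ-treated skin. Krt6a, Krt6b and Krt16 in the 3 IMQ libraries all sit above the controls, Krt15, Krt2 and Krt77 all below them, and Krt1, Krt10 and Krt17 overlap.

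Per unit of transcript length, the make-up of the keratin RNA differed between the groups, which is given without a test. Stress keratins took 6.62%, 4.67% and 10.4% of the summed keratin FPKM in control replicates 1, 2 and 3 and 29.0%, 32.5% and 24.1% in IMQ replicates 4, 5 and 6, or 7.24% ± 2.92 and 28.5% ± 4.23 (SD, n = 3 each). Suprabasal keratins took 52.3% ± 13.6 of it in controls and 34.1% ± 4.85 after IMQ, with overlapping libraries, since control replicate 3 was at 36.9% and IMQ replicate 4 at 39.6%. Basal keratins took 28.2% ± 4.10 and 34.6% ± 6.03, also overlapping. All keratins together took 1.77% to 3.09% of total TPM in controls and 2.30% to 4.30% after IMQ. The ratio of type I to type II FPKM kept within a narrow range, 1.12 to 1.17 in controls and 1.07 to 1.11 after IMQ.

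**Figure D2:**
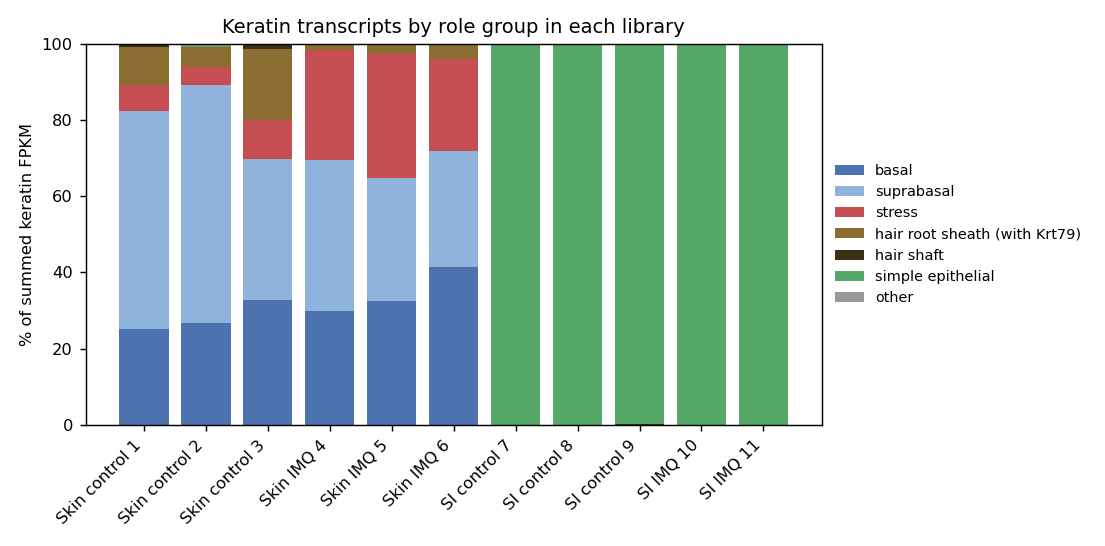
Share of summed keratin FPKM (vertical axis, percent) taken by each group of keratins in each of the 11 libraries; each bar adds to 100% and each colour is 1 group. Stress keratins fill 24.1% to 32.5% of the bar in IMQ-treated skin and 4.67% to 10.4% in control skin, and simple-epithelial keratins fill nearly the whole bar in small intestine.

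The 26 hair follicle keratins are described with control replicate 2 apart. Of the 25 with a count in skin, all but Krt40, Krt79 and Krt84 were lower in control replicate 2 than in both other controls, and the same 22 were lower in all 3 IMQ libraries than in control replicates 1 and 3. On a log scale, replicate 2 lay nearer to the IMQ libraries than to the other controls for 20 of the 25. Among the 16 keratins whose normalized counts averaged 100 or more in control replicates 1 and 3, replicate 2 had under 5% of that mean for 12, the exceptions being Krt32, Krt36, Krt75 and Krt79. The IMQ libraries had under 5% of it for 12 as well, the exceptions being Krt32, Krt36, Krt79 and Krt83. The share of all genes that behaved in these ways was not computed, so the counts in this paragraph are descriptions without a background. The hair and melanocyte marker sums given above were likewise low in control replicate 2 and the IMQ libraries. Not every hair marker fell after IMQ, among them Foxn1 and Lpar6, with log2 fold changes of 0.18 and 0.14. The proliferation sum was lower in replicate 2, at 80.8, than in the IMQ libraries, at 162.3 to 179.6. The part of these cells in the result was not tested.

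Apart from Krt79, inner root sheath keratins were the most abundant of these in control replicates 1 and 3. Krt71, the type II keratin of all inner root sheath layers, had a normalized count of 20663 and 37206 in control replicates 1 and 3, 19.6 in control replicate 2 and 9.84, 23.7 and 14.8 in the IMQ libraries. With replicate 2 its fall was not called (log2 fold change -10.21, SE 2.37, adjusted p = 0.0523), and without it the log2 fold change was -10.79 (adjusted p = 8.79e-04). Krt25, one of its type I partners, had 17402 and 29969.9 in control replicates 1 and 3, 8.72 in replicate 2 and 7.65, 7.20 and 0 after IMQ, and was not tested because of the 0. Krt28, another type I partner, had 5163 and 6952, then 84.0 in replicate 2, and 31.7, 25.7 and 30.8 after IMQ. The fall in Krt28 was called (log2 fold change -7.11, SE 1.50, adjusted p = 0.0403), and of the 6 fits without 1 library only that without control replicate 2 kept it. Krt27 and Krt73, of the same structure, had log2 fold changes of -7.20 (adjusted p = 0.0672) and -6.76 (adjusted p = 0.0897), and without control replicate 2 both were called, at -7.78 (adjusted p = 0.00139) and -7.34 (adjusted p = 0.00275).

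Some follicle keratins did not share the loss in control replicate 2. Krt75, the type II keratin of the companion layer, had 3970.3, 2028 and 13228 in control replicates 1, 2 and 3 and 59.01, 230.3 and 99.7 in IMQ replicates 4, 5 and 6. Replicate 2 was thus on the side of the other controls, and the fall was called (log2 fold change -5.62, SE 0.90, adjusted p = 0.0184), but it was lost without control replicate 1, IMQ replicate 4, IMQ replicate 5 or IMQ replicate 6, with adjusted p from 0.0504 to 0.0706. Krt32, a type I keratin of the hair cuticle, had 164, 112 and 157 in control replicates 1, 2 and 3 and 6.56, 18.5 and 11.7 in IMQ replicates 4, 5 and 6. It was 11.6-fold lower after IMQ (log2 fold change -3.54, SE 0.40, adjusted p = 0.00624) and was called in all 6 fits without 1 library. Krt79, found in the infundibulum and the sebaceous duct, had 77511, 73947 and 42139 in control replicates 1, 2 and 3 and 31406, 55079 and 48224 in IMQ replicates 4, 5 and 6, with overlapping groups (log2 fold change -0.52, SE 0.31, adjusted p = 0.367).

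Hair shaft keratins were low per length beside the epidermal ones. Krt35, an early type I keratin of the hair matrix and cortex and the most abundant shaft keratin here, had 3227, 33.8 and 4519 in control replicates 1, 2 and 3 and 0, 2.06 and 0 in IMQ replicates 4, 5 and 6. Krt86, a type II keratin of the cortex, had 331, 4.36 and 358 in control replicates 1, 2 and 3 and 4.37, 4.11 and 7.42 in IMQ replicates 4, 5 and 6 and was not called (log2 fold change -5.42, SE 1.40, adjusted p = 0.0691), but it was called without control replicate 2, at -5.99 (adjusted p = 0.00139). Krt87 had 297.7 and 289.4 in control replicates 1 and 3, 2.18 in replicate 2 and 0 in every IMQ library. Of the 16 shaft keratins, 6 had no count in any IMQ-treated skin, and 1 of these, Krt88, had none in any skin library. Krt84, counted in this group by class as a type II hair keratin, was its 1 member that rose. It had 16.3, 9.81 and 9.59 in control replicates 1, 2 and 3 and 193, 91.5 and 37.1 in IMQ replicates 4, 5 and 6. Its rise was 8.90-fold from a low level (log2 fold change 3.15, SE 0.65, adjusted p = 0.0366), and it was called in only 1 of the 6 fits without 1 library, that without IMQ replicate 6. Krt84 was low in control replicates 1 and 3, where most shaft keratins were highest, and whether its RNA came from hair shafts was not tested.

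With all 6 skin libraries, 10 of the 26 hair follicle keratins were tested, of which 1 rose and 3 fell, where 4.05% of all genes rose and 2.69% fell. DESeq2 on the same libraries called 7 of the 10 lower (Krt27, Krt28, Krt32, Krt71, Krt73, Krt75 and Krt86). It called 1 higher, Krt84, where it called 7.39% of all genes lower and 7.38% higher. With edgeR and without control replicate 2, 8 of the 10 fell and none rose, where 6.66% of all genes tested fell and 12.1% changed in either direction. This library was set apart after its low hair genes were seen. Leaving it out narrows the control spread of the same genes, as for Krt71, whose SE went from 2.37 to 0.45. These calls are therefore not separate evidence of a fall. With all 6 skin libraries and no filter on zero counts, edgeR called 3 of 25 lower (Krt32, Krt35 and Krt75) and 1 higher (Krt84). In that fit 1.35% of all genes fell and 2.39% rose. With control replicate 2 also left out, an alternative chosen after seeing the data, 21 of 25 fell, 9 of 10 root sheath and 12 of 15 shaft keratins. There 4.55% of all genes fell and 8.17% changed in either direction. The 4 not called were Krt39, Krt40, Krt79 and Krt84. Without Krt79, hair follicle keratins took 5.03% and 14.4% of the keratin FPKM in control replicates 1 and 3, 0.117% in control replicate 2 and 0.0171% to 0.0270% in the IMQ libraries.

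**Figure D3:**
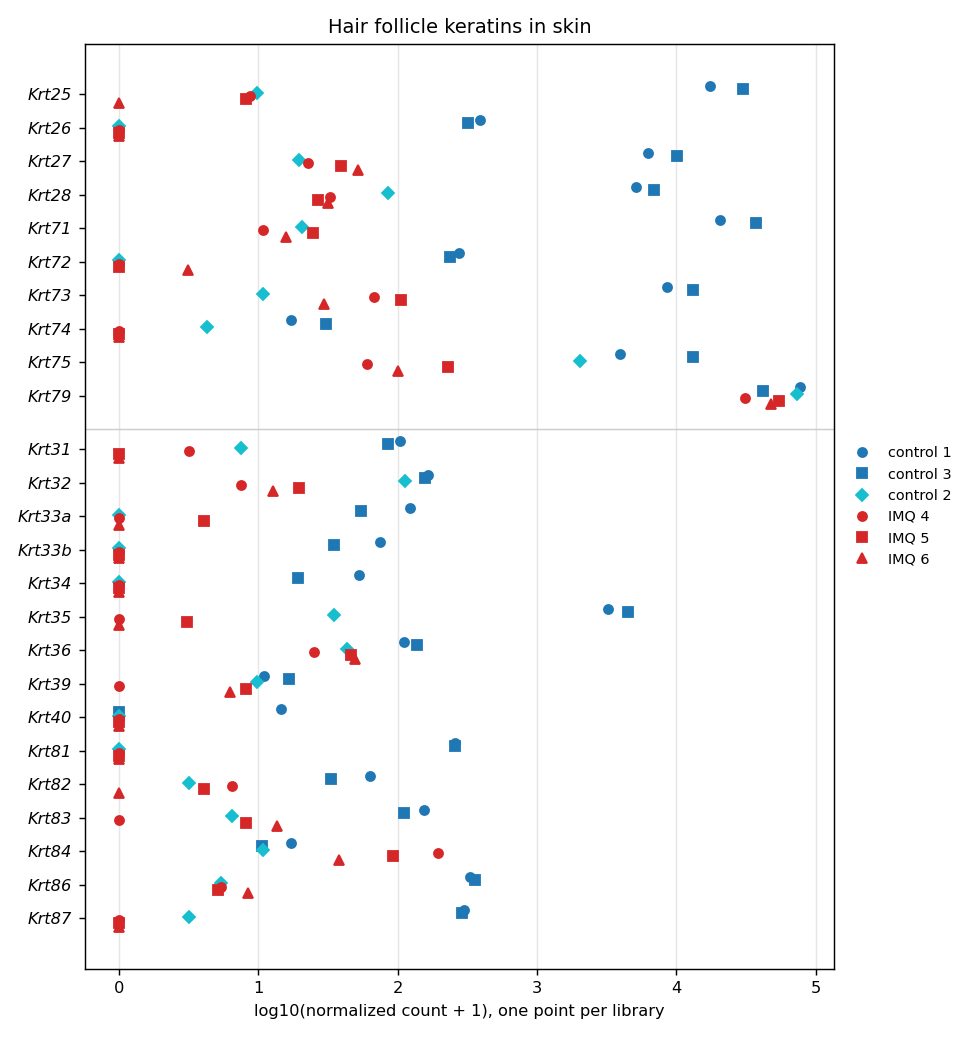
Normalized counts of 25 hair follicle keratins in each skin library, as log10(normalized count + 1) on the horizontal axis, with root sheath keratins above the line and shaft keratins below it; Krt88 had no count and is left out. Control replicate 2 (cyan diamonds) lies with the IMQ libraries (red) for most genes, such as Krt71 and Krt25, and with the other controls (blue) for Krt32, Krt75 and Krt79.

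The simple-epithelial keratins were low in skin, and none of the 5 was called by edgeR. All 5 had an unadjusted p under 0.05, a threshold at which the share of all genes was not computed. DESeq2 called 4 as lower (Krt7, Krt8, Krt19 and Krt20). Krt8, the type II keratin of simple epithelia and of Merkel cells, had 31.7, 1148 and 81.1 in control replicates 1, 2 and 3 and 14.2, 39.1 and 2.12 in IMQ replicates 4, 5 and 6, with overlapping groups (log2 fold change -4.49, SE 1.54, adjusted p = 0.141). Control replicate 2 was the highest skin library for this gene. Krt20, typical of villus enterocytes and of Merkel cells, had 34.4, 1052 and 91.5 in control replicates 1, 2 and 3 and 30.6, 40.1 and 31.8 in IMQ replicates 4, 5 and 6 (log2 fold change -3.51, SE 1.24, adjusted p = 0.149). In control replicate 2 their FPKM were 0.924% and 1.48% of the control intestine's mean, beside 0.485% to 5.96% for the 15 gut markers. Without that library the log2 fold changes were -1.60 (adjusted p = 0.300) for Krt8 and -0.88 (adjusted p = 0.263) for Krt20. Krt19, which is also made in the follicle bulge, had 107, 602 and 205 in control replicates 1, 2 and 3 and 32.8, 43.2 and 71.0 in IMQ replicates 4, 5 and 6; its libraries did not overlap, nor did those of Krt18 and Krt7, and their adjusted p-values were 0.0690, 0.198 and 0.0606. The part of gut transcripts in these values was not tested. The 8 Merkel cell markers summed to 2.27 to 3.09 FPKM in control and 1.18 to 2.47 FPKM in IMQ-treated skin. None of the 4 tested was called, and 1 was at an unadjusted p under 0.05. The highest control sum, 3.09, was that of control replicate 2. The same markers summed to 20.6 to 39.5 FPKM in control intestine, so their sum is not particular to Merkel cells.

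Of the 9 remaining keratins 5 were tested and none was called by edgeR, with 1 called by DESeq2, Krt42. In edgeR 1 was at an unadjusted p under 0.05, a threshold at which the share of all genes was not computed. Krt23, the most abundant, had 3658, 6576 and 1756 in control replicates 1, 2 and 3 and 2059, 2243 and 1038 in IMQ replicates 4, 5 and 6 (log2 fold change -1.17, SE 0.49, adjusted p = 0.218). Krt42, a type I keratin of the nail unit, was at 15.4, 5.45 and 23.5 in control replicates 1, 2 and 3 and 52.5, 69.9 and 31.8 in IMQ replicates 4, 5 and 6; the treated libraries were all above the controls (log2 fold change 1.77, SE 0.52, adjusted p = 0.0968). Krt76, a keratin of oral epithelium that was not tested because of a 0 in control replicate 3, had 39.8, 5.45 and 0 in controls and 72.1, 96.7 and 33.9 after IMQ.

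The keratin genes lie in 2 clusters, with 27 between 99232761 and 100269951 on chromosome 11 and 27 between 101348315 and 102032026 on chromosome 15, where Krt18 is the only type I gene. On chromosome 15 Krt1, not called, stood between Krt2 and Krt77, and Krt75, which fell, stood next to Krt6b, which rose. On chromosome 11 Krt15 and Krt14 were separated by the keratins Krt19 and Krt9 alone.

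**Figure D4:**
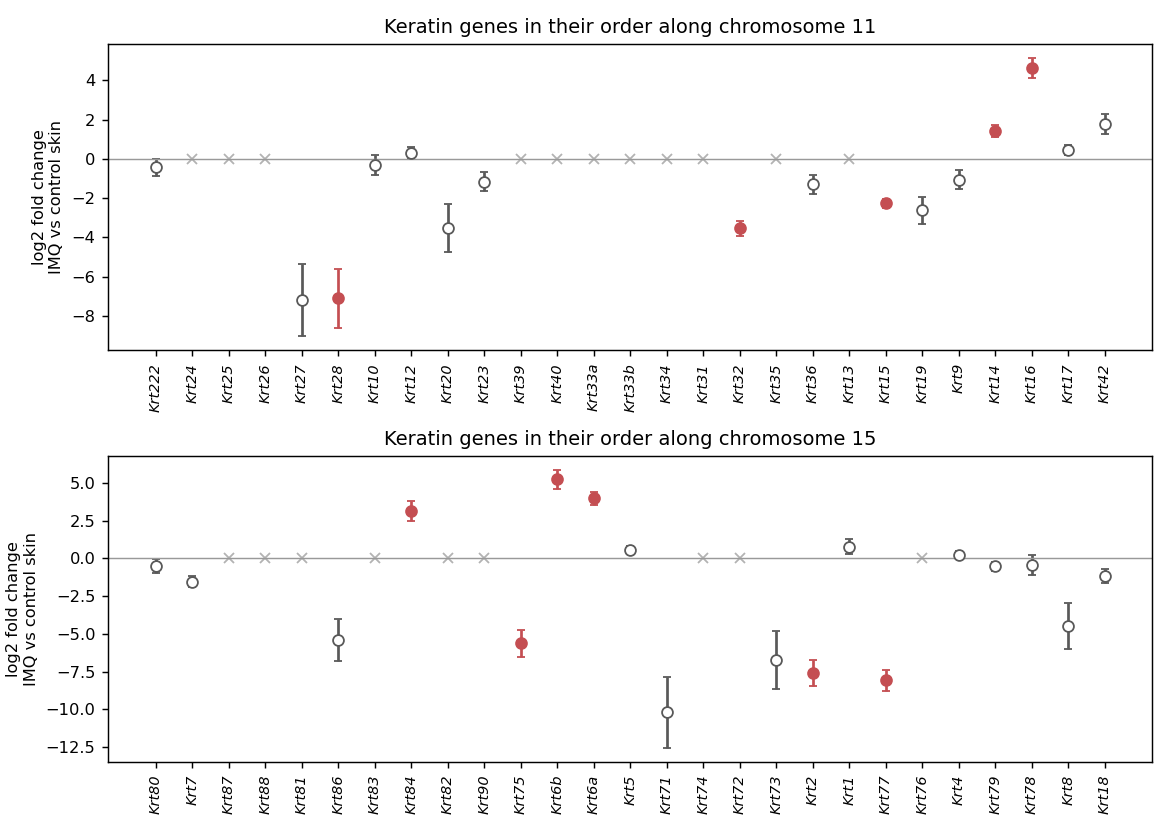
Log2 fold change of each keratin in IMQ-treated against control skin (vertical axis, bars are SE), in the genes' order along chromosome 11 (top) and chromosome 15 (bottom). Filled red points are the 11 genes called, open points were tested and not called, and crosses at 0 mark 20 genes that were not tested.

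Genes that act with keratins, and markers of the cell types around them, were counted by list, to be read against 4.05% of all genes called higher and 2.69% called lower in skin. Those shares are for adjusted p-values. The share of all genes at an unadjusted p under 0.05 was not computed and would be higher, so counts at that threshold are descriptions only. Of 25 partners of keratin filaments (desmosomal, plakin and cross-linking proteins), 1 rose and 2 fell in skin: Tgm3, a transglutaminase of the cornified envelope, with a log2 fold change of 2.73, Pkp2 with -1.11 and Dsg2 with -0.89. Of 24 regulators of keratin genes, 22 were tested, and Fosl1 (4.30), Nfe2l2 (0.76) and Stat3 (0.74) rose, while Lef1 (-3.10) and Hoxc13 (-2.92) fell. Fosl1 encodes an AP-1 subunit. At an unadjusted p under 0.05 were 6 of the 25 partners and 11 of the 22 regulators. Of 10 markers of epidermal differentiation, only Casp14 was called, with a rise of 1.68, and of 8 basal keratinocyte markers only Sfn, with a rise of 1.03; 2 of each list were at an unadjusted p under 0.05. Among 18 hair genes 17 were tested and 4 fell, Shh (-6.76), Lef1 (-3.10), Hoxc13 (-2.92) and Gata3 (-0.84), with 11 of the 17 at an unadjusted p under 0.05 and a median change of -2.46. Mc1r (-5.42) fell among 9 melanocyte markers, Awat2 (-2.27) and Fa2h (-1.68) among 9 sebaceous gland markers, and Bfsp1 (1.56) rose among 16 other intermediate filament genes, of which 11 were tested. At an unadjusted p under 0.05 were all 9 melanocyte markers (median -3.13 on the log2 scale), 8 of the 9 sebaceous markers (median -1.26) and 2 of the 11 other intermediate filament genes. The melanocyte and hair sums of control replicate 2 given above lay nearer to those of the IMQ libraries than to those of the other controls. No marker of proliferation, mesothelium or gut epithelium was called by edgeR in skin, with an unadjusted p under 0.05 for 0 of 12, 1 of 3 and 2 of 5 tested. The 5 gut markers tested were Rbp2, Anpep, Slc5a1, Slc15a1 and Mttp, and the 2 were Rbp2 (1.56) and Slc5a1 (1.44). The other 10 gut markers had a 0 in at least 1 skin library and were not tested, so this result does not cover them. In the small intestine, Vim (0.81) and Pparg (1.37) were the only members of these 12 lists that were called, where 2.95% of all genes were.

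In the small intestine, the question was whether skin treatment was accompanied by a change in gut keratins. Of the 54 keratins, 12 had a count in every intestinal library, and none was called by edgeR, where 2.95% of all 19965 genes tested were. DESeq2, which called 6.04% of all genes, and limma-voom called none either. In edgeR 2 had an unadjusted p under 0.05 (Krt18 and Krt80), a threshold at which the share of all genes was not computed. The groups did not overlap for 2 keratins on the higher side, Krt15 and Krt80, where 15.1% of all genes did so, and for 4 on the lower side, Krt8, Krt18, Krt19 and Krt222, where 13.9% did so. Simple-epithelial keratins made up 99.8% ± 0.0185 of the keratin FPKM in control intestine (SD, n = 3).

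Krt8 was the most abundant intestinal keratin per length, with normalized counts of 121552, 118254 and 144479 in control replicates 7, 8 and 9 and 87304 and 104994 in IMQ replicates 10 and 11. Both IMQ libraries were below every control (log2 fold change -0.41, SE 0.25, adjusted p = 0.605). Krt19 and Krt20 followed it in FPKM. Krt19 had normalized counts of 59886, 60077 and 50256 in control replicates 7, 8 and 9 and 34973 and 46686 in IMQ replicates 10 and 11 (log2 fold change -0.47, SE 0.22, adjusted p = 0.458), and Krt20 had normalized counts of 56617, 50508 and 115325 in control replicates 7, 8 and 9 and 65956 and 71600.4 in IMQ replicates 10 and 11, where control replicate 9 was the highest of the 5 libraries (log2 fold change -0.11, SE 0.38, adjusted p = 0.956). Krt18, the classical partner of Krt8, had normalized counts of 6795, 6426 and 6104 in control replicates 7, 8 and 9 and 4380.1 and 5314 in IMQ replicates 10 and 11 (log2 fold change -0.41, SE 0.14, adjusted p = 0.262), and Krt7, a keratin of ducts, had normalized counts of 2780.2, 2201 and 1936 in control replicates 7, 8 and 9 and 1836 and 2040.2 in IMQ replicates 10 and 11 (log2 fold change -0.25, SE 0.17, adjusted p = 0.670). In control intestine Krt8 took 45.5% ± 1.23 of the keratin FPKM, Krt19 26.8% ± 5.89, Krt20 23.6% ± 7.84 and Krt18 2.99% ± 0.508, so that Krt18 RNA was 0.0545 to 0.0721 of that of Krt8. Krt80 was at 61.8, 32.3 and 61.0 in control replicates 7, 8 and 9 and 122 and 93.1 in IMQ replicates 10 and 11 (log2 fold change 1.06, SE 0.36, adjusted p = 0.266).

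**Figure D5:**
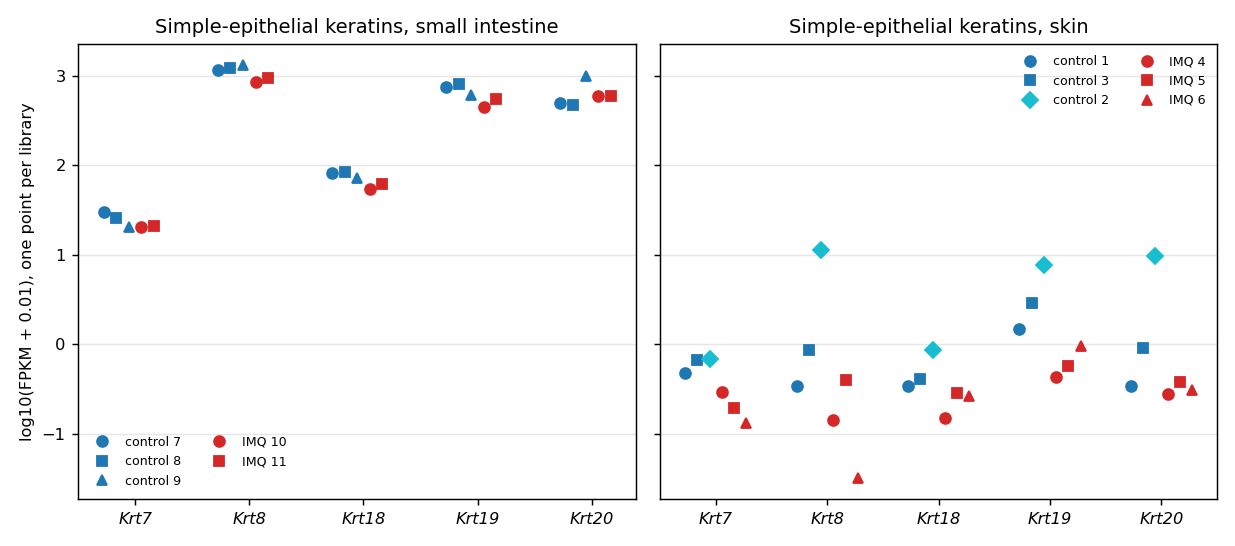
Levels of the 5 simple-epithelial keratins in small intestine (left) and skin (right), as log10(FPKM + 0.01) on the vertical axis, with 1 point per library; blue and cyan points are vehicle-treated and red points IMQ-treated mice. In small intestine the groups lie close together, and in skin control replicate 2 (cyan diamonds) is above all other skin libraries for Krt8, Krt18, Krt19 and Krt20.

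Control skin and control small intestine were compared to place each keratin by tissue. Of 14 keratins with a count in all 6 control libraries, 13 differed, where 51.9% of all 18890 genes tested did so. Higher in skin were Krt17 (log2 difference of skin minus intestine 12.50, SE 0.38, adjusted p = 3.36e-06), Krt10 (11.62), Krt15 (10.66), Krt78 (7.88), Krt80 (7.76), Krt23 (4.97) and Krt87 (4.66). Lower in skin were Krt8 (-8.57, SE 1.52, adjusted p = 0.00217), Krt20 (-7.88), Krt19 (-7.87), Krt18 (-7.66), Krt7 (-5.82) and Krt12 (-3.36). Krt222 did not pass the test (-0.22, adjusted p = 0.567). Without control skin replicate 2 the same 13 were called, and the differences were -11.50 for Krt8 (adjusted p = 4.42e-06), -10.55 for Krt20, -8.86 for Krt19, -8.24 for Krt18 and -5.97 for Krt7. For Krt87 the difference was then 5.24. Its normalized count was 2.18 in control skin replicate 2, against 297.7 and 289.4 in replicates 1 and 3. With no filter on zero counts 44 of the 54 differed, 38 of them higher in skin, where 39.7% of all genes differed. Of the 54, 36 had a count under 10 in every intestinal library, among them all 26 of the hair follicle.

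The change in the 2 tissues was compared directly by an interaction term over 12 keratins with a count in every library. Krt14, Krt2, Krt77 and all stress and hair follicle keratins were not tested because of zeros in the intestine. With edgeR it was called for Krt15 alone (intestinal minus skin change 2.39 on the log2 scale, SE 0.40, adjusted p = 0.0127), where 2.55% of all 18108 genes tested were called. Krt15 was low in the intestine, at 14.8 to 17.1 normalized counts in controls and 17.2 and 17.7 after IMQ. The call was lost without IMQ intestinal replicate 10 (adjusted p = 0.0794) or 11 (adjusted p = 0.0628). DESeq2 called 3 of the 12 (Krt15, Krt19 and Krt7), where it called 7.07% of all genes. The simple-epithelial keratins had interaction values of 0.74 to 4.10 and were not called by edgeR. Of the 5, 4 were at an unadjusted p under 0.05, a threshold at which the share of all genes was not computed. Without control skin replicate 2 the interaction values of the 5 were 0.16 to 1.18, none was called and 2 were at an unadjusted p under 0.05. The call of Krt15 was kept (2.09, adjusted p = 0.00122).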

How the data were processed

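The authors trimmed 100-base paired-end reads, aligned them to mm10 with HISAT2 2.1.0 and assembled and quantified transcripts with StringTie 2.1.3b (bcl2fastq 2.20.0 and Trimmomatic are also named in the submitters' processing notes). They deposited 1 table of all 11 libraries with read counts, FPKM and TPM per gene. How shared reads were counted is not given in the sources used here.

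From the deposited counts, genes with at least 1 read in every library of a comparison were normalized by relative log expression and tested with the quasi-likelihood test of edgeR 4.0.16 (R 4.3.3), with Benjamini-Hochberg adjustment and a threshold of 0.05. The SE is the log2 fold change divided by the square root of F. Treatment was compared within each tissue, tissues were compared in controls, and an interaction term used all libraries. Deposited FPKM, which are per length, served for levels and shares of the keratin sum. Each tissue's normalized counts were scaled on their own. Scripts were tested on simulated data. Alternatives used DESeq2 1.42.0, limma 3.58.1, other normalizations, filters and left-out libraries, and their effect is given in the closing section. The members, their groups and the gene lists were chosen with earlier results of these data known. Named with values were keratins called in either tissue, the 3 of highest FPKM per group, the 5 simple-epithelial keratins in intestine, and Krt6a, Krt6b, Krt16 and Krt17; a few others were chosen after their values were seen. Totals of 44995414 to 58526384 counts per library set the counting error. Replicate numbers were not shared between groups, so no pairing was used. Promoters were read from RefSeq on GRCm38.p6.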

Additional observations from a re-analysis of the deposited data

Results flagged for a closer look

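The change of Krt15 differed between tissues by the interaction test, with an intestinal change that was 2.39 higher than the skin change on the log2 scale (SE 0.40, adjusted p = 0.0127 by the quasi-likelihood test of edgeR). In skin all 3 IMQ libraries were below all 3 controls, and in intestine the counts were 14.8 to 17.7 after normalization in all 5 libraries. Keratins with larger changes in skin, such as Krt16 and Krt77, had zeros in the intestine and could not enter this test.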

How the results depend on the processing

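The share of all genes called is given in brackets. The skin count of 11 keratins called (6.74%) became 21 with DESeq2 (14.8%; 7 higher and 14 lower), and ranged from 7 (without control replicate 1, 1.57%, IMQ replicate 4, 2.25%, or IMQ replicate 5, 1.24%) to 14 (without control replicate 2, 12.1%) when 1 library was left out. With no filter on low counts and all 6 skin libraries, edgeR called 5 higher and 6 lower (3.74%). With control replicate 2 also left out, chosen after seeing the data, the count was 28 with edgeR (8.17%), 32 with DESeq2 (14.1%) and 29 with limma-voom (8.61%). The interaction count of 1 (2.55%) became 3 with DESeq2 (7.07%) and 0 without intestinal IMQ replicate 10 (0.793%) or 11 (1.04%), so its range over left-out libraries was 0 to 1. Between control tissues, the 13 keratins called (51.9%) became 44 of 54 without the filter (39.7%; 38 higher in skin, 6 lower) and 12 to 13 without 1 library (42.9% to 53.1%). The intestinal count was 0 under every alternative run. For the intestinal log2 change without 1 library, Krt20 ranged from -0.32 to 0.36, reversing without control replicate 9, and Krt23 from -0.041 to 0.52, reversing without control replicate 8 (-0.0048) or 9 (-0.041). In skin, the calls of Krt14 (lost in each of the 6 fits without 1 library), Krt28, Krt75 and Krt84 depended on single libraries and held in 7, 6, 10 and 8 of 10 other models, and those of Krt15, Krt16, Krt2, Krt32, Krt6a, Krt6b and Krt77 were kept in all 6 such fits and all 10 of those models. The stress share of keratin FPKM was higher by 19.3 to 23.5 percentage points without 1 library, the basal share by 3.03 to 8.79, and the suprabasal and hair shares changed by -26.0 to -13.1 and -12.4 to -5.19. This hair share includes Krt79, unlike the hair share given in the results. The cause of these shifts was not tested.

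No paired analysis was possible because replicate numbers 1 to 11 are not shared between groups. Groups of 3 and 2 libraries, a 0 in 1 library that kept 20 keratins out of the skin test, and reads shared between paralogs limit the precision.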
